A study of Danio rerio with 25 samples.

Results

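The genes of the proteasome were examined in dmd mutant and WT sibling zebrafish larvae with and without endurance neuromuscular electrical stimulation (eNMES). Members were chosen by a rule on name and count, with earlier results of these data known. The rule took every gene whose symbol starts with psm, followed by a letter from a to g and a number. Its counts had to sum to at least 10 over all libraries. This gave 57 of the 25832 genes that reached that sum. A further 2 genes fitted the name but not the sum, PSMB11 with 7 counts and psmb11b with 3 counts in all libraries together, and no value is given for them. By role, 17 members encode constitutive subunits of the 20S core, 21 encode subunits of the 19S regulator, 5 encode immune-type beta subunits, 2 encode the activator PA28 (PSME1 and PSME2), 3 encode other activators, 6 encode assembly chaperones and 1 encodes the inhibitor PSMF1. The name also caught PSMC3IP and PSME3IP1, which encode proteins that interact with a PSM protein and are not subunits.

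The larvae came from spawns of the sapje ta222a line, in which the mutated gene dmd encodes dystrophin, and were collected at 7 days post-fertilization (dpf). Each library held polyA RNA of 2 whole larvae. The groups were dmd mutants with eNMES (n = 9), dmd mutants without it (dmd control, n = 8), WT siblings with eNMES (n = 3) and WT siblings without it (WT control, n = 4). The labels of the WT groups say only sibling, and the paper states that larvae were sorted by the look of their muscle. Whether a WT sibling carried a mutated copy of dmd is not given. Stimulated larvae had a session at 2, 3 and 4 dpf, so RNA was taken 3 days after the last one. The genotype is carried by every cell of the larva and the RNA is of the whole body, so a level in muscle is not measured as such, and fewer cells of a type and less RNA per cell cannot be told apart. The dmd gene, which checks the labels, had 1192 ± 130 normalized counts in dmd eNMES (SD, n = 9), 1200 ± 94.7 in dmd control (n = 8), 4164 ± 577 in WT eNMES (n = 3) and 3744 ± 1230 in WT control (n = 4). Library totals lay between 7957160 and 22808348 counts.

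The proteasome is the protease that degrades proteins tagged with ubiquitin. Its 20S core is a barrel of stacked rings in which alpha subunits (PSMA) form the gate and beta subunits (PSMB) form the chamber, where PSMB6, PSMB7 and PSMB5 carry the caspase-like, trypsin-like and chymotrypsin-like active sites. The 19S regulator binds the end of the barrel: its PSMC subunits are ATPases that unfold the substrate, and its PSMD subunits bind, deubiquitinate or scaffold. In cells exposed to interferon, PSMB9, PSMB10 and PSMB8 replace the constitutive catalytic subunits and PSME1 and PSME2 form a cap that needs no ATP, which favours peptides for antigen presentation. In muscle the proteasome is known for breaking down contractile proteins during atrophy.

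Constitutive subunits were the abundant part of the family. On the TPM scale, which compares genes per length of transcript, PSMB7 averaged 150 over all libraries, PSMB4 147 and PSMA8 108. PSMA8 carries psma7 as an older name in the RefSeq table of zebrafish genes. The median over genes was 47.6 TPM for the 10 alpha genes, 92.7 TPM for the 4 beta genes without an active site, 47.2 TPM for the 7 ATPase genes and 32.6 TPM for the 14 non-ATPase genes. The immune-type beta genes lay lower, between 0.888 TPM for PSMB9 and 10.2 TPM for PSMB10. PSME1 averaged 18.2 TPM and PSME2 8.69 TPM. Together the 57 members held 2213 ± 170.1 TPM in dmd eNMES (SD, n = 9), 2026 ± 140.4 in dmd control (n = 8), 2898 ± 87.0 in WT eNMES (n = 3) and 2539 ± 115 in WT control (n = 4). No dmd mutant library reached the lowest WT sibling library of the same treatment: the sums ran from 1987 to 2457 TPM in dmd eNMES against 2808 to 2982 TPM in WT eNMES, and from 1839 to 2215 TPM in dmd control against 2399.6 to 2678 TPM in WT control.

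**Figure D1:**
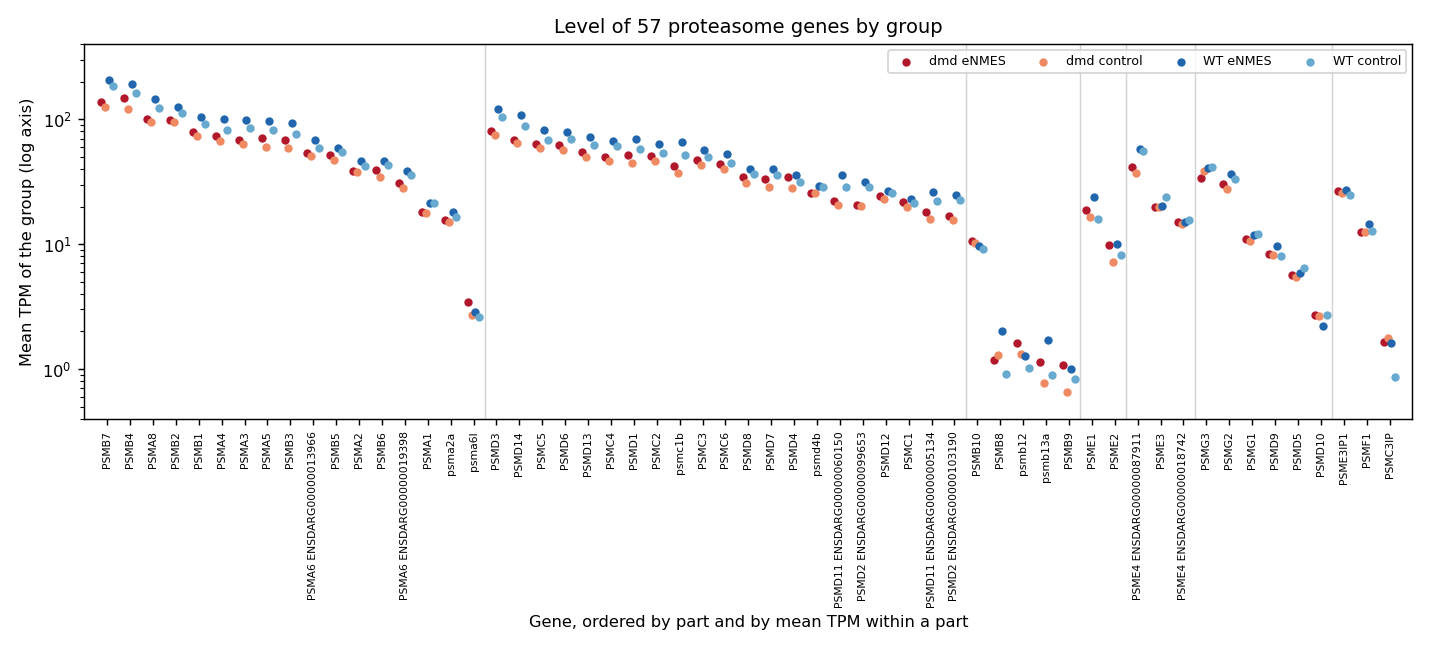
Mean TPM of each of the 57 genes (log axis) in dmd eNMES, dmd control, WT eNMES and WT control; genes run from the highest to the lowest mean within the parts constitutive 20S, 19S, immune-type beta, PSME1 and PSME2, other activators, chaperones and other, which grey lines divide. The WT sibling points lie on top for most 20S and 19S genes, and PSMB8, PSMB9, psmb12 and psmb13a lie at the bottom of the axis.

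Several subunits have more than 1 gene. Of the TPM assigned to PSMA6, 61.3% went to ENSDARG00000013966, 35.4% to ENSDARG00000019398 and 3.3% to psma6l. The ATPase gene psmc1b took 68.0% against 32.0% for PSMC1, and PSMA2 took 71.6% against 28.4% for psma2a. The copies of PSMD11 (56.2% for ENSDARG00000060150), of PSMD2 (55.7% for ENSDARG00000099653) and of PSMD4 (54.7% for ENSDARG00000101295, 45.3% for psmd4b) were closer to equal. For PSME4, which encodes the activator PA200, ENSDARG00000087911 took 74.7%. RSEM divides reads that map to several genes by estimation, so the split between copies is less certain than their sum.

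The comparison of genotypes without stimulation asked how the family differed between dmd control and WT control larvae. The 20S and 19S genes were lower in dmd control. Of the 57 members, 29 had an adjusted p under 0.1 (edgeR quasi-likelihood test, Benjamini-Hochberg over all 25832 genes), and all 29 were lower in dmd control. Among all genes tested the share that was lower at this threshold was 4.3% (6.56% were higher), and among the 17166 genes at least as abundant as the lowest 20S or 19S gene it was 5.93%. That lowest gene was psma6l, with a mean of 48.5 normalized counts, where the other 20S and 19S genes had 284 or more. These 17166 genes are therefore not matched to the subunits in abundance. Of the 38 constitutive 20S and 19S genes, 27 fell and 37 had a negative log2 fold change, with a median of -0.29, or -18.3%, where the median over all genes was 0.01. The changes were small: no member passed the fold threshold of 0.6 on the log2 scale together with an adjusted p under 0.1, by edgeR or by DESeq2, where 3.12% of all genes did. When WT control replicate 3 was left out the test gave 17 members, all lower, and when any other single library was left out the count stayed within 1.5 times of 29, with 32 at most.

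PSMD14, the deubiquitinase of the 19S lid, had the smallest adjusted p of the family. It had 698 to 867 normalized counts in dmd control (median 786), against 1001, 953, 1172 and 1067 in WT control, and the groups did not overlap (log2 fold change -0.43, SE 0.067, adjusted p 0.000293). PSMB7, the trypsin-like subunit, had 954 to 1335 in dmd control (median 1122) against 1585, 1541, 2044 and 1494 in WT control, again without overlap (-0.54, SE 0.092, adjusted p 0.000639). PSMD3, a scaffold of the lid, had 1509 to 1930.3 in dmd control (median 1714) against 2132, 1993, 2743 and 2452 in WT control. Its lowest WT control library stood above its highest dmd control library (-0.45, SE 0.075, adjusted p 0.000504).

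Both copies of PSMD2, the large scaffold of the 19S base, fell. ENSDARG00000103190 had 577 to 772 normalized counts in dmd control (median 632) against 909, 879, 1021 and 923 in WT control (log2 fold change -0.49, adjusted p 0.000297). ENSDARG00000099653 had 617 to 838 in dmd control (median 723) against 970.3, 871, 1172 and 1046 in WT control (-0.47, adjusted p 0.0026). Neither overlapped between the groups. Both copies of the lid subunit PSMD11 did the same. ENSDARG00000060150 had 484 to 606 in dmd control (median 586) against 865, 740.2, 821 and 714 in WT control (-0.46, adjusted p 0.000725), and ENSDARG00000005134 had 465 to 680.3 (median 559) against 803, 804, 766 and 731, also at -0.46 (adjusted p 0.00372).

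Among the ATPases, psmc1b, a gene for the ATPase that helps to open the gate of the core, had 575 to 760.5 normalized counts in dmd control (median 652) against 869, 849, 933 and 875 in WT control (log2 fold change -0.44, SE 0.078, adjusted p 0.00115). Its copy PSMC1 had 529.6 to 633 in dmd control (median 567) against 589, 634, 582 and 596 in WT control, which overlapped (-0.07, adjusted p 0.538). PSMC4 had 940 to 1205 in dmd control (median 1187) against 1547, 1323, 1494 and 1419 in WT control, without overlap (-0.37, adjusted p 0.00198). PSMC2 and PSMC5, both at -0.20, also passed, so 4 of 7 ATPase genes fell. PSMC1, PSMC3 and PSMC6 did not pass.

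In the core, 7 of 10 alpha genes fell. PSMA3 had 527 to 694 normalized counts in dmd control (median 649) against 793, 753, 922 and 863 in WT control (log2 fold change -0.41, adjusted p 0.00298). PSMA8 had 968 to 1349 in dmd control (median 1167) against 1348, 1325, 1529 and 1470.5 in WT control, and the groups overlapped at their edges (-0.29, adjusted p 0.01). PSMA5 (-0.42), PSMA4 (-0.26), PSMA1 (-0.26) and both main copies of PSMA6 passed as well. PSMA6 ENSDARG00000013966 had 410.3 to 478 in dmd control (median 428) against 489, 479, 573 and 477 in WT control (-0.22, adjusted p 0.0425), and PSMA6 ENSDARG00000019398 had 210.0 to 317 (median 261) against 320.4, 260.2, 345 and 350.3 (-0.32, adjusted p 0.0839). The alpha genes that did not pass were PSMA2 and psma2a, both at -0.10, and the weakly expressed psma6l, at 0.08 with 34.7 to 57.3 in dmd control (median 44.9) against 37.4, 59.1, 31.7 and 40.8 in WT control.

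All 4 beta genes without an active site fell, PSMB4 (log2 fold change -0.40, adjusted p 0.00153), PSMB3 (-0.36), PSMB1 (-0.32) and PSMB2 (-0.24). PSMB4 had 1002 to 1364 normalized counts in dmd control (median 1114) against 1452, 1415, 1514 and 1624 in WT control, without overlap. Of the catalytic genes, PSMB6 had 426 to 501 in dmd control (median 472) against 584, 489, 626 and 599.5 in WT control (-0.29, adjusted p 0.0197). PSMB5, the chymotrypsin-like subunit, had 615 to 779.6 in dmd control (median 690) against 789, 771, 822 and 753 in WT control, and stayed just above the threshold (-0.18, adjusted p 0.101).

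Of the 14 non-ATPase genes of the regulator, 10 fell, the others in this group being PSMD1 (log2 fold change -0.33), PSMD13 (-0.30), PSMD7 (-0.29) and PSMD6 (-0.28). PSMD8 (-0.24), PSMD12 (-0.13) and both genes for the ubiquitin receptor PSMD4 did not pass. PSMD4 ENSDARG00000101295 had 399 to 504 normalized counts in dmd control (median 436) against 483, 466, 505 and 513 in WT control (-0.14, adjusted p 0.294), and psmd4b had 397 to 544 (median 445) against 508, 485, 527 and 513 (-0.15, adjusted p 0.293). Over the whole family, 18 of 57 members had every dmd control library below every WT control library, 16 of them constitutive 20S or 19S genes, where 1.93% of all genes did.

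Outside the core and the regulator only PSME4 ENSDARG00000087911 and PSMG2 passed in this comparison. PSME4 ENSDARG00000087911 had 2528 to 4603 normalized counts in dmd control (median 3747) against 5152, 5407, 5854 and 5572 in WT control, without overlap (log2 fold change -0.56, SE 0.137, adjusted p 0.018). The other copy, ENSDARG00000018742, had 1366 to 1776 in dmd control (median 1499.5) against 1659.5, 1477, 1646 and 1655 in WT control (-0.08, adjusted p 0.426). PSMG2, which with PSMG1 pairs in assembling the alpha ring, stood at -0.26 (adjusted p 0.0368). The inhibitor PSMF1 (-0.00), PSME3, a nuclear activator (-0.23), and the chaperones PSMD5 (-0.23), PSMG1 (-0.16), PSMG3 (-0.10), PSMD10 (-0.01) and PSMD9 (0.06) did not pass. Nor did the interacting proteins PSMC3IP and PSME3IP1 in any comparison, and PSMC3IP was low, with 8.42 to 22.6 in dmd control (median 13.1) against 9.13, 11.4, 6.13 and 4.43 in WT control.

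**Figure D2:**
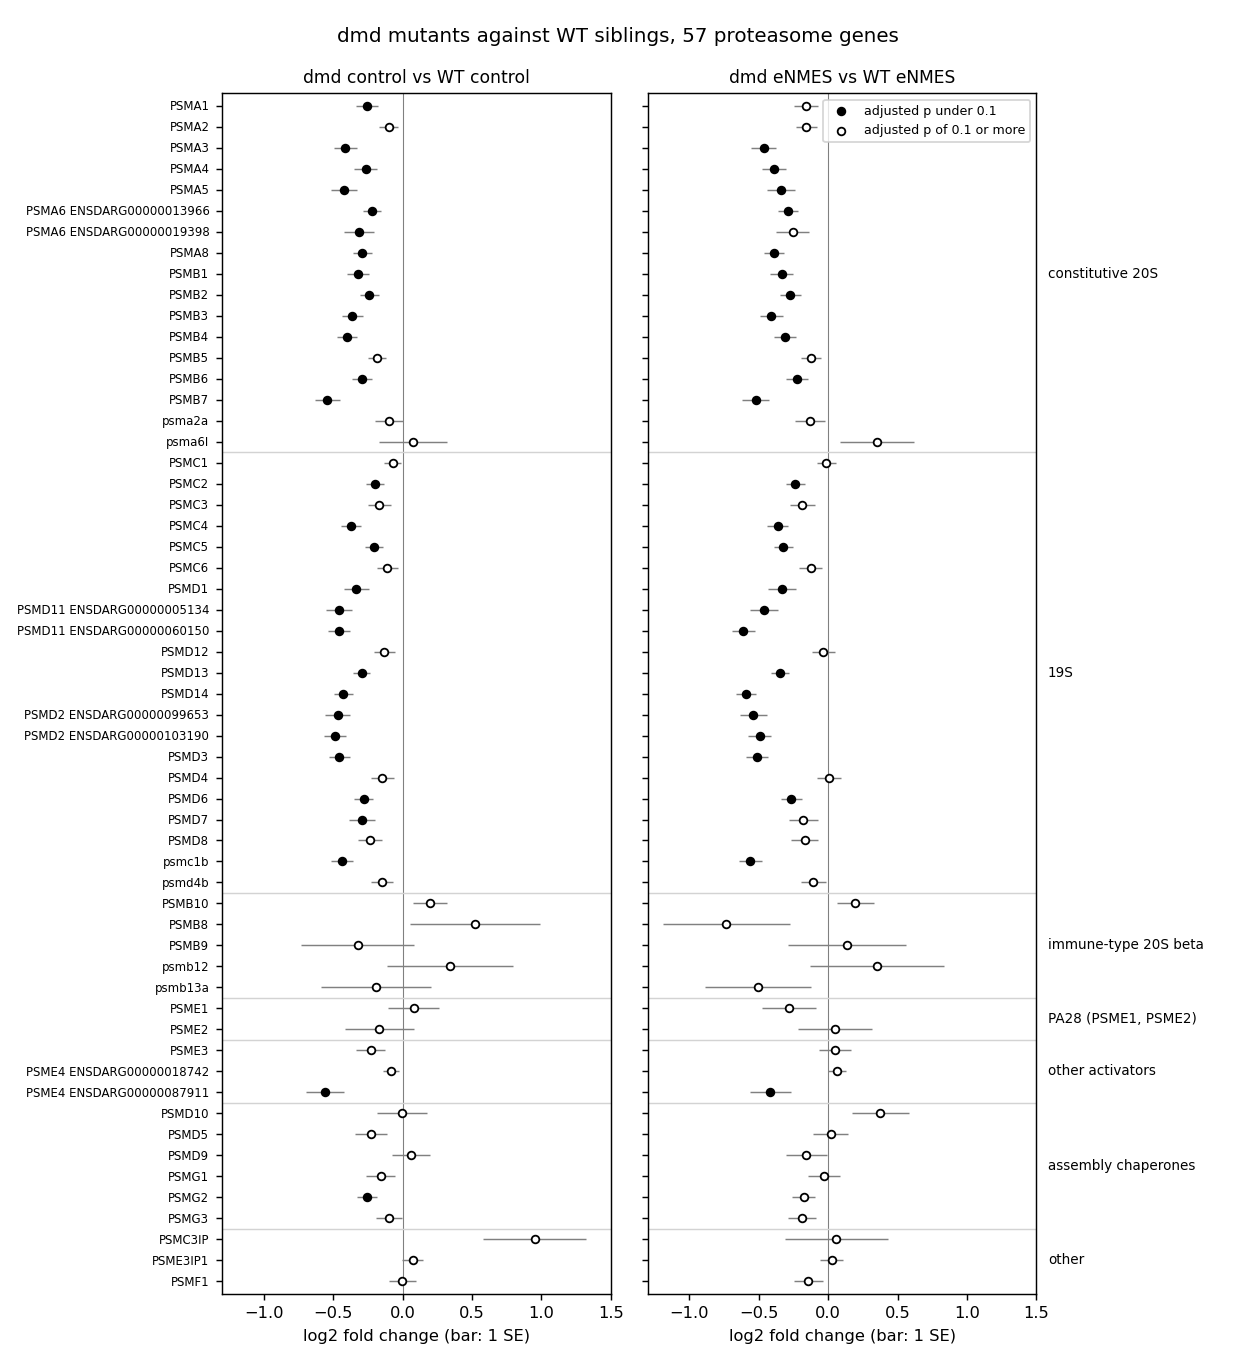
Log2 fold change of each of the 57 genes (x axis; bar, 1 SE) in dmd control against WT control (left) and in dmd eNMES against WT eNMES (right), with genes down the page by part. Filled points, adjusted p under 0.1, number 29 on the left and 25 on the right, all left of 0 and nearly all in the 20S and 19S parts.

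The comparison of stimulated larvae, dmd eNMES against WT eNMES, shares no library with the comparison of controls and gave nearly the same list. Of the 57 members, 25 had an adjusted p under 0.1 and all 25 were lower in dmd eNMES (edgeR), where 5.57% of all genes were lower and 6.74% higher at this threshold (7.44% lower among the genes at least as abundant as the lowest 20S or 19S gene). All 25 were also among the 29 of the controls, so the overlap was 100% of the list in stimulated larvae and 86.2% of the list in controls. Of all genes tested, 291 were lower in both comparisons, out of 1110 in controls and 1439 in stimulated larvae. Among the 38 constitutive 20S and 19S genes, 24 fell and 36 had a negative log2 fold change, with a median of -0.30 against 0.00 for all genes. The 4 members that passed in controls only were PSMA1, PSMA6 ENSDARG00000019398, PSMD7 and PSMG2, with log2 fold changes of -0.16, -0.25, -0.18 and -0.18 here. The difference between the comparisons is the same as the difference of the eNMES changes, for which no member passed.

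PSMD11 ENSDARG00000060150 had 535 to 727 normalized counts in dmd eNMES (median 590.1) against 969, 926 and 905 in WT eNMES. It was the only member past the fold threshold of 0.6 at an adjusted p under 0.1 (log2 fold change -0.61, SE 0.083, adjusted p 5.68e-05), where 3.94% of all genes were. Leaving out 1 library at a time gave 0 to 2 such members. PSMD14 had 757 to 927 in dmd eNMES (median 797) against 1213, 1288 and 1208 in WT eNMES, the smallest adjusted p of the family (-0.59, SE 0.072, adjusted p 1.44e-05). psmc1b had 638 to 882 in dmd eNMES (median 702) against 1049, 1069 and 1129 in WT eNMES (-0.56, adjusted p 0.000144), and PSMC1 had 532 to 673 (median 640.0) against 617, 622 and 652 (-0.01, adjusted p 0.931). As in controls, the main ATPase copy was separated between genotypes and the minor copy overlapped.

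PSMD3 had 1699.6 to 2070.2 normalized counts in dmd eNMES (median 1806) against 2664, 2789 and 2445 in WT eNMES (log2 fold change -0.51, adjusted p 0.000256). PSMB7 had 1091 to 1392 in dmd eNMES (median 1255) against 1573, 1842 and 1939.8 in WT eNMES (-0.52, adjusted p 0.00174). The PSMD2 copies stood at -0.49 (ENSDARG00000103190, 644 to 777 with a median of 745 against 1008, 1056 and 943) and -0.54 (ENSDARG00000099653, 633 to 854 with a median of 749.5 against 1019, 1245 and 973). None of these genes overlapped between dmd eNMES and WT eNMES. PSMA8 (-0.39), PSMA3 (-0.47), PSMC4 (-0.36), PSMD13 (-0.35) and PSMD11 ENSDARG00000005134 (-0.46) were also without overlap, and in all 20 members had every dmd eNMES library below every WT eNMES library, where 4.15% of all genes did. PSMB4 was among them by a narrow margin, with 1256 to 1553.8 in dmd eNMES (median 1322) against 1728, 1756 and 1554.3 in WT eNMES (-0.31, adjusted p 0.0176). PSME4 ENSDARG00000087911 passed (-0.42, adjusted p 0.0912) but overlapped, since 1 dmd eNMES library reached 5995 while the median was 3826, against 5664, 5341 and 5536 in WT eNMES. Its call was lost in 17 of the 24 fits that left out 1 library (adjusted p up to 0.256), and that of PSMB6 (-0.22) in 10. Without WT eNMES replicate 2 the count of members that fell was 17, and without dmd eNMES replicate 7 it was 26.

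The level of the 38 constitutive 20S and 19S genes was also summed up for each library as their mean log2 normalized count relative to WT control. It ran from -0.29 to -0.02 in dmd eNMES (median -0.15), from -0.43 to -0.17 in dmd control (median -0.24), from 0.05 to 0.18 in WT eNMES (median 0.14) and from -0.09 to 0.09 in WT control (median 0.00). Genotypes did not overlap within either treatment, and the ranges of dmd eNMES and dmd control overlapped in part. Libraries also differ in their circadian clock genes, and this division crosses the groups. The sign of the first principal component of 38 clock genes was positive in all 4 WT control libraries and negative in all 3 WT eNMES libraries. The dmd mutants held both signs, 5 negative and 4 positive with eNMES and 5 negative and 3 positive in control. In dmd mutants the sign followed the replicate number. It was negative in dmd eNMES replicates 2 to 6 and dmd control replicates 1 to 5. It was positive in dmd eNMES replicates 7 to 10 and dmd control replicates 6 to 8. Of the 38 clock genes, 15 were lower in WT eNMES against WT control (3.36% of all genes) and 9 in dmd control against WT control (4.3%). In dmd eNMES against WT eNMES 16 were higher (6.74% of all genes) and 2 lower (5.57%). None passed in dmd eNMES against dmd control, where 0.414% of all genes did.

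Within dmd mutants the subunit level differed in its median by that sign, with ranges that overlapped. It had a median of -0.27 in the 5 negative and -0.11 in the 4 positive dmd eNMES libraries, and of -0.41 in the 5 negative and -0.19 in the 3 positive dmd control libraries. When only the 3 dmd control libraries with the sign of WT control were used, 10 members were lower than in WT control at an adjusted p under 0.1, where 0.864% of all genes were, and the median of the 38 genes was -0.20 with 34 of them negative. When only the 5 dmd eNMES libraries with the sign of WT eNMES were used, 26 members were lower than in WT eNMES, where 4.01% of all genes were, and the median of the 38 genes was -0.34. The part of the clock state in the difference between dmd eNMES and WT eNMES, or between WT eNMES and WT control, was not tested beyond these values. In WT siblings clock sign and eNMES cannot be told apart. In dmd mutants clock sign cannot be told apart from any other difference between libraries of low and of high replicate number.

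**Figure D3:**
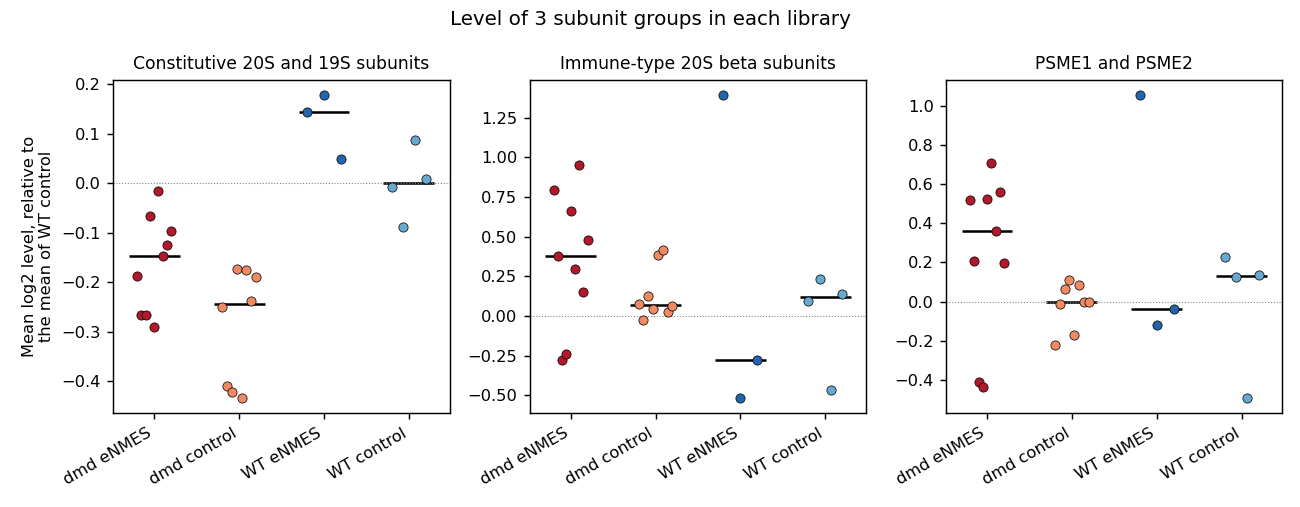
Mean log2 normalized count of the 38 constitutive 20S and 19S genes (left), the 5 immune-type beta genes (middle) and PSME1 with PSME2 (right) in each library, relative to the mean of WT control; points are libraries and bars are group medians. On the left the dmd mutant points lie below the WT sibling points of the same treatment, with medians of -0.15 in dmd eNMES and -0.24 in dmd control against 0.14 in WT eNMES and 0.00 in WT control, and in the other panels a single WT eNMES library, replicate 1, lies on top.

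In dmd mutants, eNMES against control asked whether stimulation changed these genes in the mutants. All 38 constitutive 20S and 19S genes had a positive log2 fold change, with a median of 0.11 against -0.00 for all genes, of which 12556 of 25832 were positive. The 38 genes vary together between libraries, so their like signs are not 38 separate observations. Of the 57 members, 2 passed at an adjusted p under 0.1 (edgeR), both higher, where 0.267% of all genes were higher. PSMD4 ENSDARG00000101295, a ubiquitin receptor, had 465 to 639 normalized counts in dmd eNMES (median 530) against 399 to 504 in dmd control (median 436), with a log2 fold change of 0.28 (SE 0.064, adjusted p 0.0706). PSMB4 had 1256 to 1554 in dmd eNMES (median 1322) against 1002 to 1364 in dmd control (median 1114), with 0.25 (SE 0.059, adjusted p 0.0817). Both genes overlapped between the groups, as did every other member, where 0.031% of all genes had every dmd eNMES library above and 0.00774% had every one below dmd control. At an unadjusted p under 0.05 stood 18 members, 15 of them in the core and regulator, where 10.3% of all genes did. Among these, PSMA5 (0.23), PSMD1 (0.23), PSMD7 (0.21) and PSMB3 (0.19) did not reach the adjusted threshold. No member passed with a fold over 0.6, by edgeR or DESeq2, where 0.128% of all genes did. The calls rested on many libraries: leaving out dmd eNMES replicate 5, 7 or 8, or dmd control replicate 1, 2, 3 or 5, gave 0 members, leaving out dmd eNMES replicate 6 or 10 or dmd control replicate 7 gave 1, and leaving out dmd eNMES replicate 4 gave 3.

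In WT siblings, the 20S and 19S genes differed between eNMES and control by log2 fold changes of a like size and direction. Clock sign and eNMES cannot be told apart in these larvae. Of the 38 constitutive 20S and 19S genes, 35 had a positive log2 fold change, with a median of 0.12 against 0.01 for all genes. Only psmc1b passed, with 1049, 1069 and 1129 normalized counts in WT eNMES against 869, 849, 933 and 875 in WT control (log2 fold change 0.30, SE 0.097, adjusted p 0.0897, edgeR), where 3.12% of all genes were higher at this threshold. It lost the call when any WT eNMES library, any WT control library or dmd eNMES replicate 10 was left out, and without WT control replicate 3 PSMD14 passed in its place (0.30, adjusted p 0.0829). At an unadjusted p under 0.05 stood 10 members, where 17.5% of all genes did, so the share of members was no larger than that of all genes. PSMD14 (0.24), PSMD11 ENSDARG00000060150 (0.25), PSMB3 (0.23), PSMA4 (0.23) and PSMC5 (0.21) were among them. Of the members, 9 had every WT eNMES library above every WT control library, where 10.1% of all genes did. For 1 member, PSME3, every WT eNMES library was below (log2 fold change -0.29), as for 10.2% of all genes. None was called with a fold over 0.6, by edgeR or DESeq2, where 2.95% of all genes were. This comparison shares its libraries with those of the genotypes, so its values are not independent of them.

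The difference of the eNMES changes, dmd minus WT, was tested as an interaction. No member passed by edgeR or DESeq2, none had an unadjusted p under 0.05, and the background was 2.81% and 14.5% of all genes. Over the 38 constitutive 20S and 19S genes the differences ran from -0.17 for PSMD14 (SE 0.101) to 0.27 for psma6l (SE 0.36), with a median of -0.01. For PSMD4 the change was larger in dmd mutants by 0.15 (SE 0.118) and for psmc1b larger in WT siblings (-0.12, SE 0.116), in each case by little more than 1 standard error. With 3 WT eNMES libraries these errors leave room for differences as large as the changes themselves.

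**Figure D4:**
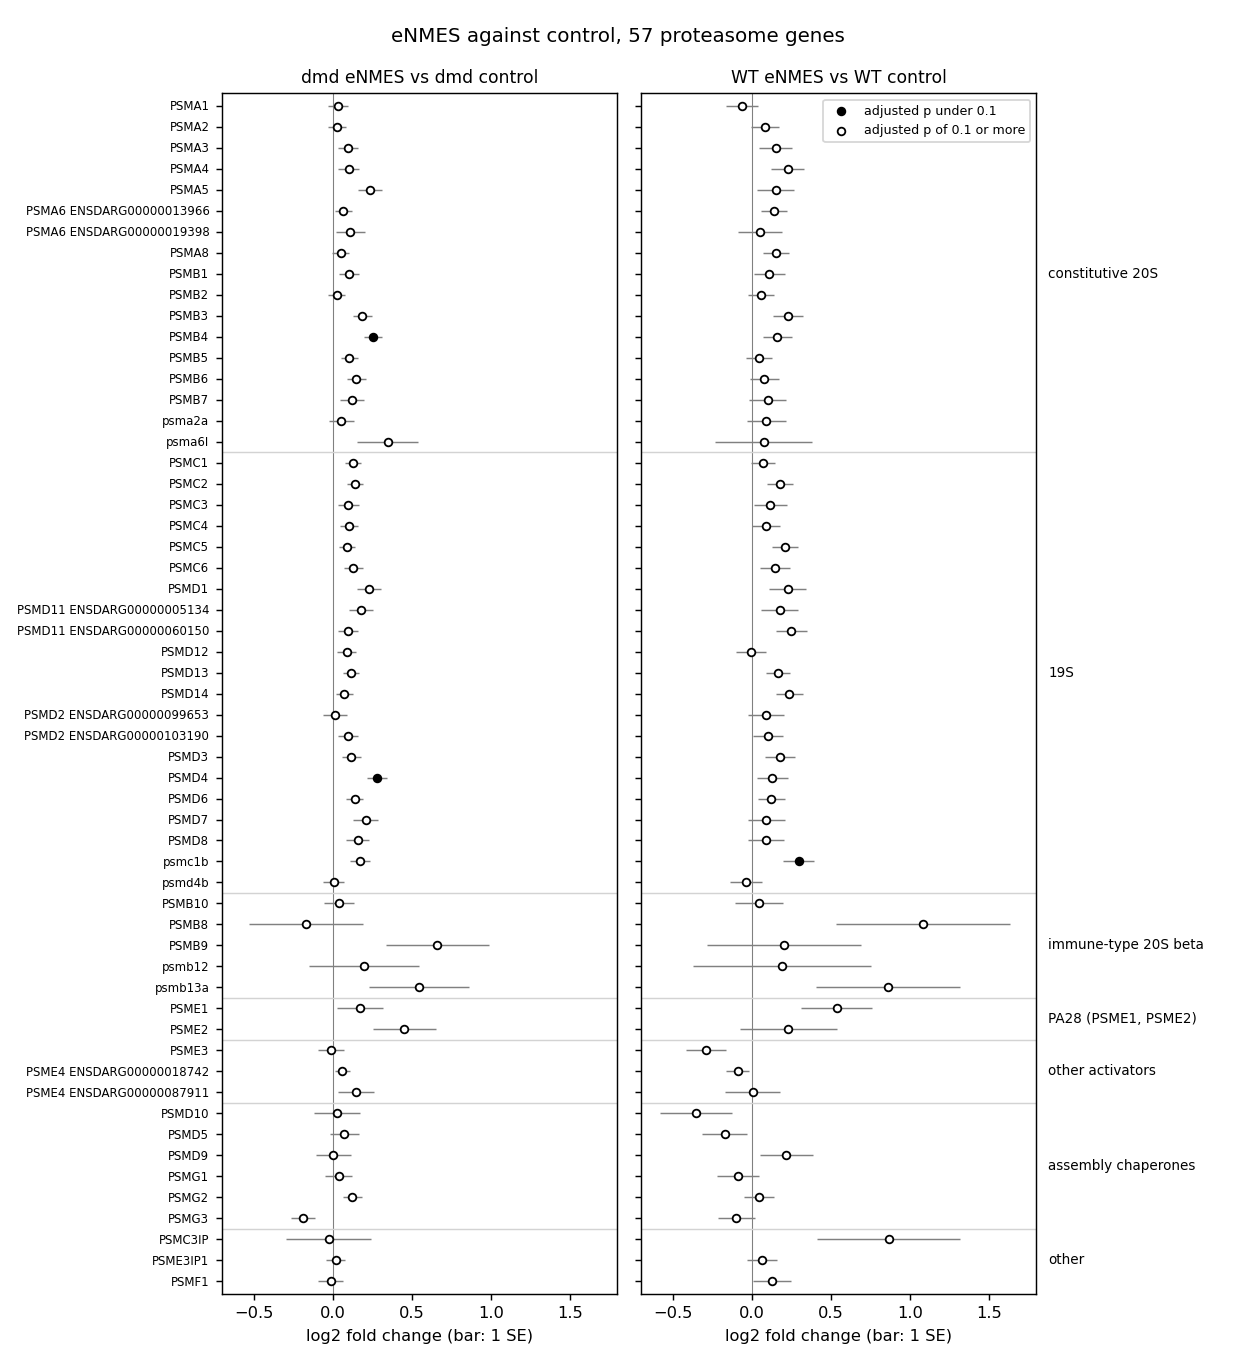
Log2 fold change of each of the 57 genes (x axis; bar, 1 SE) in dmd eNMES against dmd control (left) and in WT eNMES against WT control (right), with genes down the page by part. Points of the 20S and 19S parts sit slightly right of 0 on both sides, filled (adjusted p under 0.1) for PSMB4 and PSMD4 on the left and for psmc1b on the right.

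Immune-type subunits gave no calls in the fit of all libraries. None of the 5 immune-type beta genes passed in any comparison by edgeR, at an adjusted p under 0.1 or at an unadjusted p under 0.05 (21.8% of all genes reached the second in controls and 22.9% in stimulated larvae), and DESeq2 gave no adjusted p under 0.1 where it gave one. Of PSME1 and PSME2 none passed either, with an unadjusted p of 0.0251 for PSME1 in WT siblings and 0.0326 for PSME2 in dmd mutants. With the replicate number as a block, which leaves out WT eNMES replicate 1, PSME2 was higher in dmd eNMES than in WT eNMES (0.65, adjusted p 0.0532), against 0.05 with all libraries. Their median log2 fold change in dmd control against WT control was 0.20 for the beta genes and -0.04 for PSME1 and PSME2. With 4.01 to 61.4 normalized counts per library, the beta genes other than PSMB10 had standard errors of 0.31 to 0.57 on the log2 scale, so a change of the size seen in the constitutive genes was not detectable at this depth. RefSeq lists psmb8a, psmb9a, psmb12 and psmb13a as overlapping genes on chromosome 19. RSEM's counts were whole in all 24 libraries for PSMB8. They were not whole in 1 library for PSMB9, 3 for psmb12 and 1 for psmb13a, so few reads were divided by estimation.

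PSMB10, which replaces PSMB7, had 83.7 to 133 normalized counts in dmd eNMES (median 119.6), 101 to 131 in dmd control (median 110.3), 128, 91.3 and 86.1 in WT eNMES and 114, 94.3, 85.8 and 99.3 in WT control. These ranges overlapped, and the log2 fold change was 0.20 in controls (SE 0.121) and 0.19 in stimulated larvae (SE 0.132). As a share of the TPM of PSMB10 and PSMB7 together, PSMB10 made up 7.22 ± 1.06% in dmd eNMES (SD, n = 9), 7.69 ± 1.01% in dmd control (n = 8), 4.56 ± 1.37% in WT eNMES (n = 3) and 4.80 ± 1.03% in WT control (n = 4). The share did not overlap between controls, at 6.16% to 9.57% in dmd control against 3.35% to 5.75% in WT control, and it overlapped in stimulated larvae, at 5.25% to 8.71% in dmd eNMES against 3.55% to 6.12% in WT eNMES. The fall of PSMB7 enters this share directly.

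PSMB8, which replaces PSMB5, had 5.81 to 26.2 normalized counts in dmd eNMES (median 15.2), 11.3 to 27.8 in dmd control (median 17.6), 61.4, 6.02 and 7.65 in WT eNMES and 12.8, 19.7, 7.15 and 7.98 in WT control. PSMB9, which replaces PSMB6, had 5.81 to 21.4 in dmd eNMES (median 13.4), 5.12 to 13.5 in dmd control (median 7.65), 20.8, 5.02 and 8.61 in WT eNMES and 5.48, 12.4, 4.08 and 17.7 in WT control. In both genes the ranges of all 4 groups overlapped. As shares of TPM, PSMB8 made up 2.24 ± 0.797% of PSMB8 and PSMB5 in dmd eNMES, 2.63 ± 0.757% in dmd control, 3.25 ± 4.08% in WT eNMES and 1.63 ± 0.797% in WT control, and PSMB9 made up 2.69 ± 1.07% of PSMB9 and PSMB6 in dmd eNMES, 1.86 ± 0.598% in dmd control, 2.10 ± 1.51% in WT eNMES and 1.92 ± 1.22% in WT control.

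The beta genes psmb12 and psmb13a, known from fish and other vertebrates outside mammals, were as low. psmb12 had 5.28 to 26.2 normalized counts in dmd eNMES (median 9.68), 4.14 to 19.99 in dmd control (median 10.0), 18.9, 4.01 and 4.78 in WT eNMES and 11.9, 6.22, 7.15 and 7.10 in WT control. psmb13a had 4.75 to 19.4 in dmd eNMES (median 12.6), 6.41 to 12.3 in dmd control (median 7.26), 36.9, 8.03 and 8.61 in WT eNMES and 10.0, 11.4, 6.13 and 11.5 in WT control. In each of these genes the first WT eNMES library stood apart from the other 2.

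The activator genes showed that library as well. PSME1 had 137 to 270.4 normalized counts in dmd eNMES (median 243), 157 to 233 in dmd control (median 198), 399, 194 and 220.0 in WT eNMES and 218, 201, 136 and 192 in WT control. PSME2 had 105 to 296 in dmd eNMES (median 202), 129 to 157 in dmd control (median 151), 325, 130.4 and 128 in WT eNMES and 188, 176, 110.3 and 188 in WT control. WT eNMES replicate 1 was the highest of all 24 libraries in PSMB8, psmb13a, PSME1 and PSME2, and it also held the highest summed level of 24 interferon and class I antigen processing genes, 467 TPM, against 315 to 336 TPM in the other WT eNMES libraries. With it, the median log2 fold change of the 5 beta genes was 0.20 in WT eNMES against WT control and 0.13 in dmd eNMES against WT eNMES. Without it, the medians were -0.55 and 0.89, so the direction in WT siblings was set by this library. The constitutive genes did not stand apart there: its 20S and 19S level, 0.14, was the middle one of the 3 WT eNMES libraries.

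**Figure D5:**
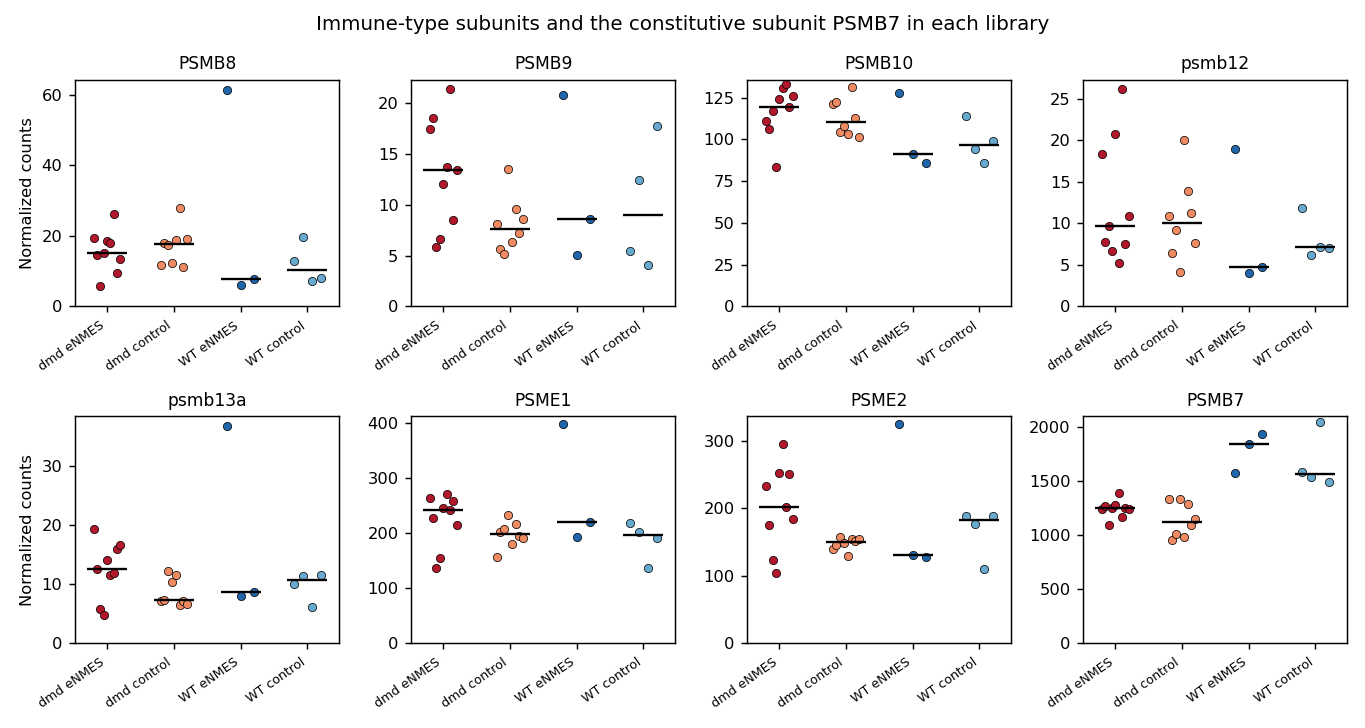
Normalized counts of the immune-type genes PSMB8, PSMB9, PSMB10, psmb12, psmb13a, PSME1 and PSME2 and of the constitutive gene PSMB7 in each library, by group; points are libraries, bars are medians and every y axis starts at 0. In PSMB8 the WT eNMES point of replicate 1, at 61.4, lies above all others, while PSMB7 separates dmd control (954 to 1335) from WT control (1494 to 2044).

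Members of the core and the regulator also varied together between libraries of the same group. After group means were subtracted, the median Pearson correlation over 24 libraries was 0.54 among the 136 pairs of 20S genes, 0.60 among the 210 pairs of 19S genes and 0.53 between 20S and 19S genes, against -0.01 between these genes and 21478 other genes. These correlations describe the libraries, which share depth, clock state and larval state across genes. In every comparison, a count of these genes with a like sign or call is therefore not a count of separate observations. PSMC4 followed the mean of the other 20S and 19S genes most closely (r = 0.90), then PSMA3 (0.90), PSMC5 (0.87), PSMD8 (0.86) and PSMD14 (0.85). The minor copies psma6l (0.21) and psma2a (0.30) followed it least. Immune-type beta genes correlated with each other (median 0.50 over 10 pairs) and not with the constitutive genes (median -0.08), PSME1 and PSME2 had a median of 0.01 with the constitutive genes, and the assembly chaperones one of 0.20. WT eNMES replicate 1 enters the correlations of immune-type genes, with a mean beta level of 1.39 against -0.52 and -0.28 in its group. They were not recomputed without it. PSMB8, PSMB9, psmb12 and psmb13a also averaged only 10.7 to 16.7 normalized counts.

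Genes around the proteasome were read from lists. Of 13 other proteasome components and bound factors, 9 fell in dmd control against WT control at an adjusted p under 0.1, with a list median of -0.26. They included TXNL1, a thioredoxin-like protein bound to the 19S regulator (log2 fold change -0.56), the proteasome deubiquitinase USP14 (-0.47), zfand5a (-0.47) and zfand5b (-0.31), whose product stimulates degradation in mammals, the ubiquitin receptor ADRM1 (-0.26), the 20S maturation factor POMP (-0.26), the shuttle receptors RAD23B (-0.26) and rad23ab (-0.18), and the ligase UBE3C (-0.16). In dmd eNMES against WT eNMES, 7 of the 13 fell, led by TXNL1 (-0.45), USP14 (-0.44), RAD23B (-0.39) and ADRM1 (-0.38), while the proteasome adaptor ECPAS (0.54) and the deubiquitinase UCHL5 (0.47) rose. In dmd eNMES against dmd control TXNL1 (0.39) and zfand5b (0.30) had an adjusted p under 0.1, but each lost the call in 15 of the 24 fits that left out 1 library, with an adjusted p of up to 0.198 for TXNL1 and 0.199 for zfand5b. In WT siblings none of the 13 passed. Of all genes, 4.3% were lower in dmd control against WT control. In dmd eNMES against WT eNMES 5.57% were lower and 6.74% higher, and in dmd eNMES against dmd control 0.267% were higher. In the genotype comparisons UBE3C in controls lost its call in 12 of these 24 fits, rad23ab in 9 and zfand5a in 8, and POMP in stimulated larvae lost its call in 10.

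Of 9 genes of the control of proteasome genes by NFE2L1, the transcription factor that restores subunit expression when the proteasome is impaired, 3 fell in dmd control against WT control: NFE2L1 itself (log2 fold change -0.31, adjusted p 0.0994), its partner MAFK (-0.51) and VCP, the ATPase that extracts it from the membrane (-0.29). The call of NFE2L1 was lost in 18 of the 24 fits that left out 1 library, with an adjusted p of up to 0.21, that of VCP in 7 and that of MAFK in 2. In dmd eNMES against WT eNMES only maff (-0.35) of these 9 fell. Of 14 genes of ubiquitin and of its activating and conjugating enzymes, uba1, the main activating enzyme (-0.20), and 1 of 2 copies of UBE2K, a conjugating enzyme (ENSDARG00000089055, -0.25), fell in controls. The other copy of UBE2K, ENSDARG00000013505, stood at 0.16 and did not pass (adjusted p 0.322). In stimulated larvae uba1 (-0.23) and UBE2K ENSDARG00000089055 (-0.32) fell as well, UBE2K ENSDARG00000013505 stood at 0.08, and UBA6 rose (0.39). Of the 24 interferon and class I genes, nlrc5 was lower in dmd control against WT control (-1.23). In dmd eNMES against WT eNMES tapbp.1 (1.70) and tapbp.2 (1.59) were higher, and none of the 24 passed in either eNMES comparison. Of all genes, 4.3% were lower in controls, and 5.57% were lower and 6.74% higher in stimulated larvae. Beside these shares, 1 or 2 calls in a list are not read as a change of that list.

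Markers of other cell types moved with genotype beside the subunits. Of 10 leukocyte markers, 6 rose in dmd control and 7 in dmd eNMES against WT siblings of the same treatment. All 10 had a positive log2 fold change in controls, while in stimulated larvae 8 were positive and 2 negative, the lowest being CXCR4 at -0.45. The summed level of the 10 was 133 to 203 TPM in dmd eNMES, 129 to 172 TPM in dmd control, 106 to 156 TPM in WT eNMES and 99.7 to 122 TPM in WT control. Of 12 skeletal muscle markers, 6 rose in controls and 7 in stimulated larvae (63534 to 83860.0 TPM in dmd eNMES, 65498 to 80375 in dmd control, 60122 to 63807 in WT eNMES and 66074 to 73374 in WT control). Of the 12, 3 had a negative log2 fold change in controls and 0 in stimulated larvae. Of 8 liver markers, 4 and 6 rose (6856 to 9955 TPM in dmd eNMES, 7904 to 9948 in dmd control, 5542 to 6066 in WT eNMES and 5347 to 6152 in WT control), and of 6 lens markers 2 fell in each. Of the liver markers 1 had a negative log2 fold change in each of the 2 comparisons, as had all 6 lens markers. Of 10 markers of T cells and thymus 9 had a positive log2 fold change in controls (list median 0.31) and none of the 9 passed, while TOX fell (-0.19). In stimulated larvae 5 were positive and 5 negative (list median -0.03), and none passed. Their summed level was 54.28 to 71.12 TPM in dmd eNMES, 54.52 to 73.2 in dmd control, 63.33 to 78.35 in WT eNMES and 66.75 to 78.88 in WT control. None of 2 markers of exocrine pancreas and 5 of epidermis passed between genotypes. Of all genes, 6.56% were higher and 4.3% lower in controls. In stimulated larvae 6.74% were higher and 5.57% lower. No marker of these lists was at 0 in a whole group. The part of these shifts in the levels of the subunits was not tested.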

How the data were processed

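Reads were trimmed by the authors and aligned to Ensembl transcripts of the zebrafish (GRCz11), and for each library they deposited RSEM's expected counts, TPM and gene lengths. The submitters' processing notes name FastQC 0.11.8, Trimmomatic 0.38.0, RSEM 1.2.31, Bowtie 1.1.2 and DESeq2 1.22.2. The deposited expected counts carry no filter or scaling, and the deposited TPM are scaled by RSEM for transcript length and library total. In a library, 32.6% to 45.3% of genes had a count that was not whole. The labels name 25 libraries, of which 24 were analysed, and replicate 1 of dmd eNMES was not analysed here.

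Counts were rounded, genes with at least 10 counts in all were kept, and 1 fit of all 4 groups was made with the quasi-likelihood test of edgeR 4.0.16 (R 4.3.3, TMM, robust dispersions). P-values were adjusted by Benjamini-Hochberg over 25832 genes. Thresholds were an adjusted p under 0.1, and the same with an absolute log2 fold change over 0.6. Normalized counts were obtained by dividing by library size times TMM factor and multiplying by the average library size. A standard error is the log2 fold change divided by the root of its F value. Levels per library and correlations used log2 normalized counts with a pseudocount of 1. Levels of different genes were compared on TPM. The biological coefficient of variation was 0.154. The labels do not say that libraries of a group came from separate spawns. The paper states that mutants and siblings were told apart by birefringence, an optical view of muscle structure. It also states that larvae of a group were grouped for extraction by severity at onset and by their later change in birefringence. P-values therefore measure the spread between libraries of 2 larvae grouped in this way.

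Gene IDs were paired with symbols through a name table, which named 23909 of the genes tested. PSMA6, PSMD2, PSMD11 and PSME4 each name 2 IDs there, given by ID. Sequences are not shown. Members and lists were chosen with earlier results of these data known. In at least 1 comparison, values or ranges over libraries are given for the 12 members with the smallest adjusted p, except PSMD13. The same holds for immune-type subunits with their constitutive counterparts, and for duplicated genes except PSMA2 and psma2a. Alternatives were DESeq2 1.42.0, its size factors, the filter filterByExpr, a minimum of 1 count, the replicate number as a block, only the groups compared in the fit, an adjusted p under 0.05, the clock sign, TPM against counts per kilobase, and each library left out in turn. For the difference of the eNMES changes, the groups compared are all 4, so that fit is the one reported. Scripts were tested on simulated data.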

Additional observations from a re-analysis of the deposited data

Results flagged for a closer look

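Each member was tested in WT control, dmd control and dmd eNMES for a highest or lowest library that stood apart from the rest of its group by Dixon's criterion, and WT eNMES, with 3 libraries, was not tested. Of 171 tests 13 passed, where chance passes about 5% of groups. In WT control, replicate 3 was highest in PSMB7 (2044 normalized counts, next 1585), PSMD7 (739, next 692) and PSMA6 ENSDARG00000013966 (573, next 489), and lowest in PSME2 (110.3, next 176) and PSMF1 (142, next 184). Replicate 1 of WT control was highest in psmb12 (11.9, next 7.15) and replicate 2 lowest in PSME4 ENSDARG00000018742 (1477, next 1646). In dmd eNMES, replicate 7 was highest in PSMB3 (665, next 581) and psma6l (89.8, next 61.0) and lowest in PSMF1 (128, next 169), replicate 9 was highest in PSMD10 (59.8, next 44.4) and replicate 8, the library with the smallest total, was lowest in PSMG3 (174, next 224). In dmd control, replicate 3 was lowest in PSMG1 (97.3, next 124). Why these libraries stood apart was not tested. No member passed the test of a difference in eNMES change between genotypes.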

How the results depend on the processing

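Between genotypes the direction of the 20S and 19S genes was the same under every alternative run, with 34 or more of the 38 lower. The 1 gene of these called higher in any of them was psma6l, in dmd eNMES against WT eNMES without WT eNMES replicate 1 (0.90, adjusted p 0.0895, against 0.35 and 0.463 with all libraries). Counts of members at an adjusted p under 0.1 moved by over 1.5 times as follows. In WT eNMES against WT control (1 member) DESeq2 gave 2, the replicate number as a block 2, a fit of only the groups compared 6, and an adjusted p under 0.05 gave 0. Of these, 1 was lower under the block and 1 in the fit of only the groups compared. It was PSME3 in both (-0.35, adjusted p 0.0569, and -0.29, adjusted p 0.0801, edgeR). In dmd eNMES against dmd control (2 members) a fit of only the groups compared, the replicate block, an adjusted p under 0.05, and the libraries of negative or of positive clock sign alone each gave 0, and the clock sign as a term gave 1. In dmd control against WT control (29 members) the dmd controls of positive clock sign gave 10. Members with a fold over 0.6 numbered 1 under the replicate block in controls (0 without it), and in stimulated larvae 8 under the block and 4 with the dmd eNMES libraries of negative clock sign (1 without). With each library left out in turn, the members at an adjusted p under 0.1 numbered 0 to 1 in WT eNMES against WT control, 0 to 3 in dmd eNMES against dmd control, 17 to 32 in dmd control against WT control and 17 to 26 in dmd eNMES against WT eNMES, and those with a fold over 0.6 numbered 0 to 2 in each genotype comparison. The labels do not say whether replicate numbers pair libraries. Same-numbered libraries correlated at -0.14 to 0.24 in their deviations from group means, which does not settle it. The block changed no other count by over 1.5 times.

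The count of positive log2 fold changes among the 38 constitutive core and regulator genes moved in the eNMES comparisons. In dmd eNMES against dmd control it was 38 with all libraries, 36 under the replicate block and 35 without dmd eNMES replicate 7. In WT eNMES against WT control it was 35 with all libraries, 34 without WT eNMES replicate 1 and 36 without WT control replicate 1. Single genes were followed only if they were immune-type or passed in the comparison. Among those, directions turned only in immune-type genes, none of which passed the test in the fit of all libraries. Over the libraries left out, the log2 fold change in WT eNMES against WT control ran from -0.17 to 0.14 for PSMB10, -0.79 to 1.54 for PSMB8, -0.55 to 0.66 for PSMB9, -0.88 to 0.54 for psmb12, -0.25 to 1.204 for psmb13a and -0.37 to 0.45 for PSME2. In dmd control against WT control it ran from -0.57 to 0.13 for PSMB9 and -0.043 to 0.16 for PSME1, and in dmd eNMES against WT eNMES from -1.19 to 1.14 for PSMB8, -0.21 to 0.89 for PSMB9, -0.85 to 0.60 for psmb13a, -0.47 to 0.12 for PSME1 and -0.17 to 0.65 for PSME2. The replicate block, which leaves out WT eNMES replicate 1 because no dmd eNMES library analysed has its number, gave 1.29 for PSMB8, 0.92 for psmb13a, 0.25 for PSME1 and 0.65 for PSME2, which then passed (adjusted p 0.0532), in dmd eNMES against WT eNMES, and -0.10 for psmb12 in dmd control against WT control. Clock sign gave -0.13 for PSME2 in dmd eNMES against WT eNMES, and in dmd eNMES against dmd control -0.049 for PSMB10 (negative sign) and -0.0022 for psmb12 (positive sign). The cause was not tested. The beta genes other than PSMB10 had 4.01 to 61.4 normalized counts per library, and PSMB10, PSME1 and PSME2 had more.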
